A study of Rattus norvegicus with 12 samples.

Results

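The miRNA repertoire of sperm was compared with that of the mammary gland of daughters over 519 of the 756 miRNA assays on a quantitative PCR array of 2 cards with 384 wells each. An assay was a member when its threshold cycle (Ct), the PCR cycle at which fluorescence crosses a threshold, was under 35 in 3 or more of the 6 samples of either tissue. An earlier Ct stands for more template, about a doubling for each cycle, and a well that never crossed was given a Ct of 40. Sperm came from the cauda epididymis and vas deferens of Sprague Dawley male rats, 3 raised on a high-fat diet based on lard and 3 on one based on corn oil. According to the methods, the males were switched to chow before mating. The sperm were washed in a lysis buffer against somatic cells. Mammary glands came from Sprague Dawley female offspring 50 days old, 3 of them fathered by lard-fed and 3 by corn oil-fed male rats, and dams and daughters ate only laboratory chow according to the methods. All 12 samples therefore came from a high-fat-fed male or from a daughter of one, and rats of the control diet were not analysed here. Males were mated as adults and were thus older than the daughters. Tissue went together with sex, age, generation and the animal's own diet, so these cannot be told apart. The labels name a single animal for each sample, whereas the series' design text speaks of pooled RNA, and n counts samples as labelled. The mammary samples were whole glands, in which fewer cells of a type and less RNA per cell cannot be told apart.

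miRNAs are short RNAs that guide repression of messenger RNAs with matching sites, and each tissue has its own set. Mature sperm hardly transcribe, and their miRNAs are left from spermatogenesis or acquired in the epididymis, from where they can be delivered to the egg. The mammary gland at this age is a branching epithelial tree set in fat, with vessels, nerves and blood cells. In the rodent card set, the first card carries mainly well characterised miRNAs and the second mainly later discovered ones and passenger strands. No table used here pairs wells with miRNAs, so assays are given by well number, no sequence is printed, and the tissue labels were not checked against marker miRNAs.

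Some samples and wells stood apart. In the glands of daughters 49.2 and 60.5, 43.6% and 52.5% of the Ct values lay within 0.05 of a whole cycle, where an even spread gives 10%, against 14.3% to 22.9% in the other samples. Over the 293 assays with a Ct in all 12 samples, the order of Ct in these 2 daughters correlated with that in the 4 other daughters at Spearman's rho of 0.848 to 0.898 across assays. Among the 4 others rho was 0.953 to 0.968, and between 49.2 and 60.5 it was 0.947. The main counts and values are therefore also given without these 2 daughters. A missing crossing was also not always a late one. In sperm, 36 of the 322 assays whose median Ct was under 28 over at least 3 samples with a Ct had no crossing in 1 or more of the 6, as had 19 of 197 in the mammary gland. The missing wells were 3.05% and 2.45% of the wells of such assays, and their part in the lists of undetected assays was not tested. With these wells taken as missing, 156 assays were called higher and 176 lower in the gland, against 150 and 164 with them at 40.

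More assays gave a Ct in sperm than in the mammary gland. Of the 756 assays, 475 to 494 (median 489.5) gave one in sperm and 398 to 470 (median 409) in the mammary gland. Every sperm sample lay above every gland. The means were 488.2 ± 6.85 and 421.8 ± 27.5 (SD, n = 6 each), a difference of -66.3 assays (exact permutation test, two-sided, p = 0.002165, or 0.00953 after Benjamini-Hochberg adjustment over 22 such comparisons of single values). With 6 samples in each tissue no smaller p can be reached. Without daughters 49.2 and 60.5 the difference was -56.4 assays (exact permutation test, p = 0.00476). The spread among glands was wider than among sperm samples, with daughter 31.2 the highest. The first card held -18 assays of this difference (exact permutation test, p = 0.00433) and the second -48.3 (p = 0.002165, exact permutation test). Counted at a Ct under 32, it was -130 assays. The assays with a Ct in all 12 samples also came later in the gland, their median Ct by 2.18 cycles on card 1 and 2.91 on card 2, and daughter 31.2 had the earliest gland medians, 25.1 and 26.6. The part of this shift in the number of assays with a Ct was not tested.

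**Figure D1:**
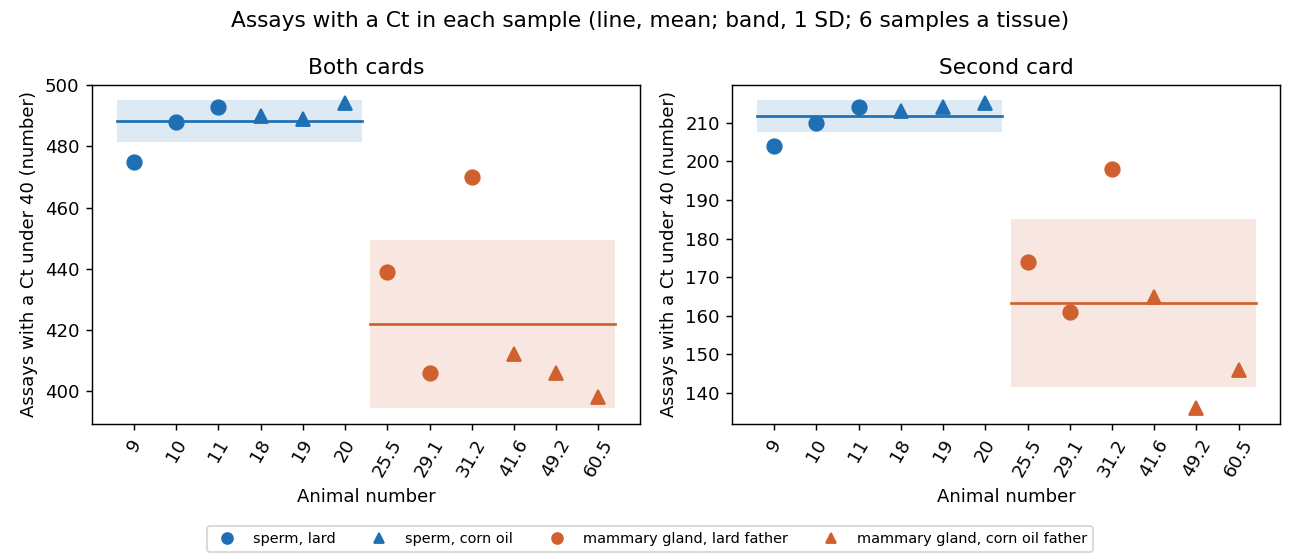
Number of miRNA assays with a Ct under 40 in each of the 12 samples, on both cards (left) and on the second card (right). Circles are lard and triangles corn oil, lines are means and bands 1 SD over 6 samples, and the axes do not start at 0. The 6 sperm samples sit between 475 and 494 on both cards together, above the highest gland at 470.

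The repertoires overlapped for the larger part. Under the limit of a Ct under 35 in at least 3 samples, 371 assays were detected in both tissues, 119 in sperm alone and 29 in the mammary gland alone, and the remaining 237 in neither. These are descriptions of the rule, since an assay detected in 1 tissue alone was chosen on its Ct in both. The assays of sperm alone lay mostly on the second card, 71 against 48 on the first. Those of the gland alone were 18 on the first and 11 on the second. Without daughters 49.2 and 60.5 the numbers were 359, 131 and 22. The limit stayed at 3 samples there, which is stricter for the gland, as fewer glands were left.

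Most sperm-only assays were not at the edge of detection in sperm. Their median Ct in sperm had a median of 29.0, with quartiles of 25.3 and 31.3, and 75 of the 119 were under 35 in all 6 sperm samples. In the mammary gland 50 of them had no Ct in any sample, 10 of which had a median sperm Ct under 25, the earliest at 19.7. Another 56 of the 119 had a Ct under 35 in 1 or 2 glands. The assay at 19.7, well 364, lies in the last 2 rows of the first card. In those rows, 8 of the 17 assays with a median gland Ct under 28 had a missing crossing, against 11 of 180 elsewhere. The part of missing crossings in this assay was not tested. The assays of the gland alone had a median gland Ct of 32.8, with quartiles of 29.9 and 34.3. The Ct of these different assays in different tissues are not compared, as the assays with a Ct in all 12 samples also came 2.18 cycles later in the gland on card 1 and 2.91 on card 2. Of these 29, 13 had no Ct in any sperm sample, and the earliest of the 13 had a median gland Ct of 30.4. The strictest contrast, a Ct under 35 in all 6 samples of one tissue and no Ct in any of the other, was met by 29 assays of sperm and by 4 of the gland.

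**Figure D2:**
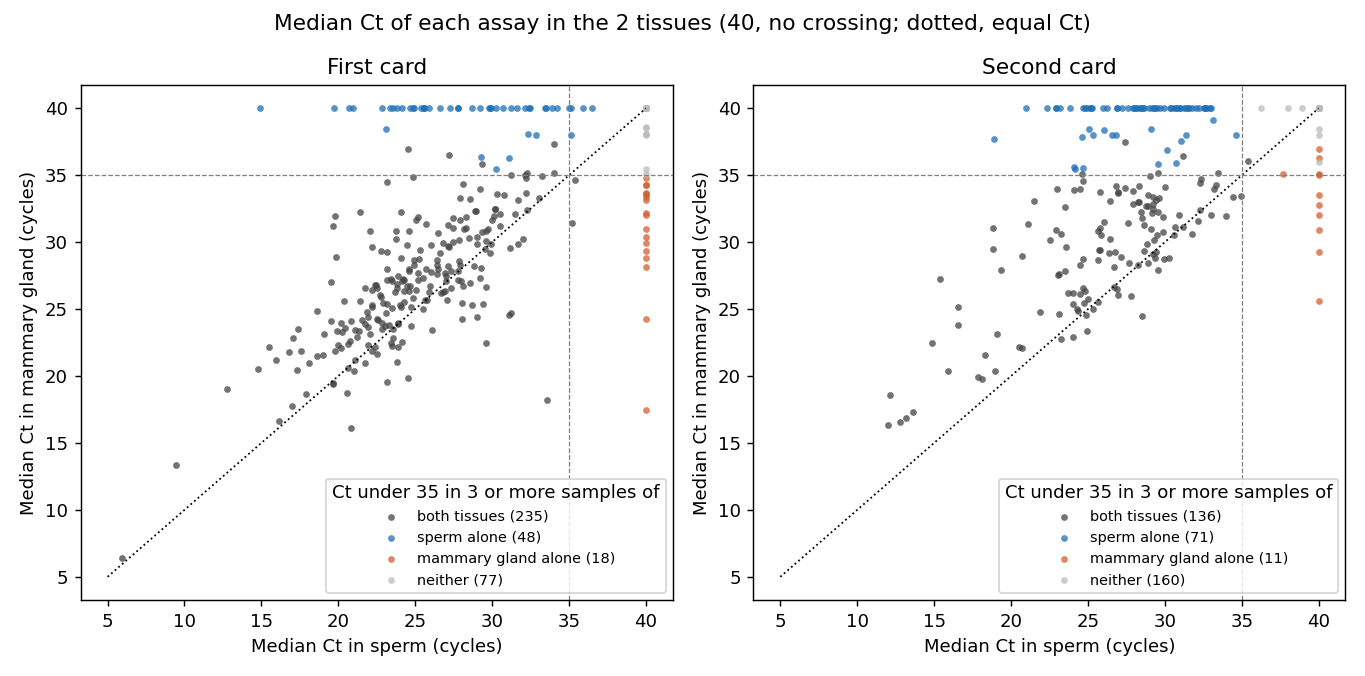
Median Ct of each of the 756 assays in sperm (horizontal) and in the mammary gland (vertical), in cycles, on the first (left) and second card (right), with 40 for no crossing and dashed lines at 35. Assays above the dotted line amplified later in the gland. Colours show where an assay was detected, 371 in both tissues, 119 in sperm alone and 29 in the gland alone.

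The number of assays higher or lower in a tissue rested on the controls to which they were referred, and for 52 shared assays so did the direction of the call. Each card holds an assay that fills 4 wells and 2 further reference wells, which were taken as its 3 endogenous controls. The 4-well assay had a Ct of 11.7 ± 0.412 in sperm and 12.3 ± 1.29 in the mammary gland on the first card (SD, n = 6 each), and the tissues overlapped. The gland was later by 0.57 cycles there (exact permutation test, p = 0.357), and by 0.11 cycles on card 2 (p = 0.783, exact permutation test). Without daughter 29.1 these values were 0.16 and -0.14 cycles. Reference well 1 came later in the gland, with 27.4 ± 1.85 against 23.8 ± 2.34 on card 1, which is 3.55 cycles (exact permutation test, p = 0.0195, adjusted 0.0357). Without daughters 49.2 and 60.5 it was 3.87 cycles on card 1. On the second card its difference was 3.71 cycles (exact permutation test, p = 0.0195), or 2.98 without daughters 49.2 and 60.5 (p = 0.081, exact permutation test). Reference well 2 was later in the gland by 2.05 cycles on card 1 (exact permutation test, p = 0.0649) and by 2.76 cycles on card 2 (p = 0.00866, exact permutation test). On the first card that difference was 2.79 cycles without rat 9 (exact permutation test, p = 0.00649). Rat 9 had the latest Ct of both reference wells among the sperm samples. It lay within the range of the glands except for reference well 2 on card 1, where its 22.0 was later than the latest gland at 21.9.

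The assays themselves also came later in the mammary gland. The median Ct of the assays with a Ct in all 12 samples was 24.5 ± 0.738 in sperm and 26.7 ± 1.10 in the gland for card 1, so 2.18 cycles later (exact permutation test, p = 0.00433, SD, n = 6 each). For card 2 it was 2.91 cycles later (exact permutation test, p = 0.00433). Set against that median, reference well 2 was within 0.15 cycles of no difference, at -0.13 for card 1 and -0.15 for card 2. Reference well 1 was later in the gland by 1.38 and 0.80 cycles (exact permutation test, p = 0.115 and 0.411). The 4-well assay differed by -1.61 and -2.79 cycles, earlier in the gland (exact permutation test, p = 0.00866 and 0.00216). Against the same assays, the 4-well assay thus gave the gland a different scale. This was not shown for either reference well (exact permutation test, p = 0.864 and 0.799 for reference well 2). The 2 reference wells were not tested against each other.

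**Figure D3:**
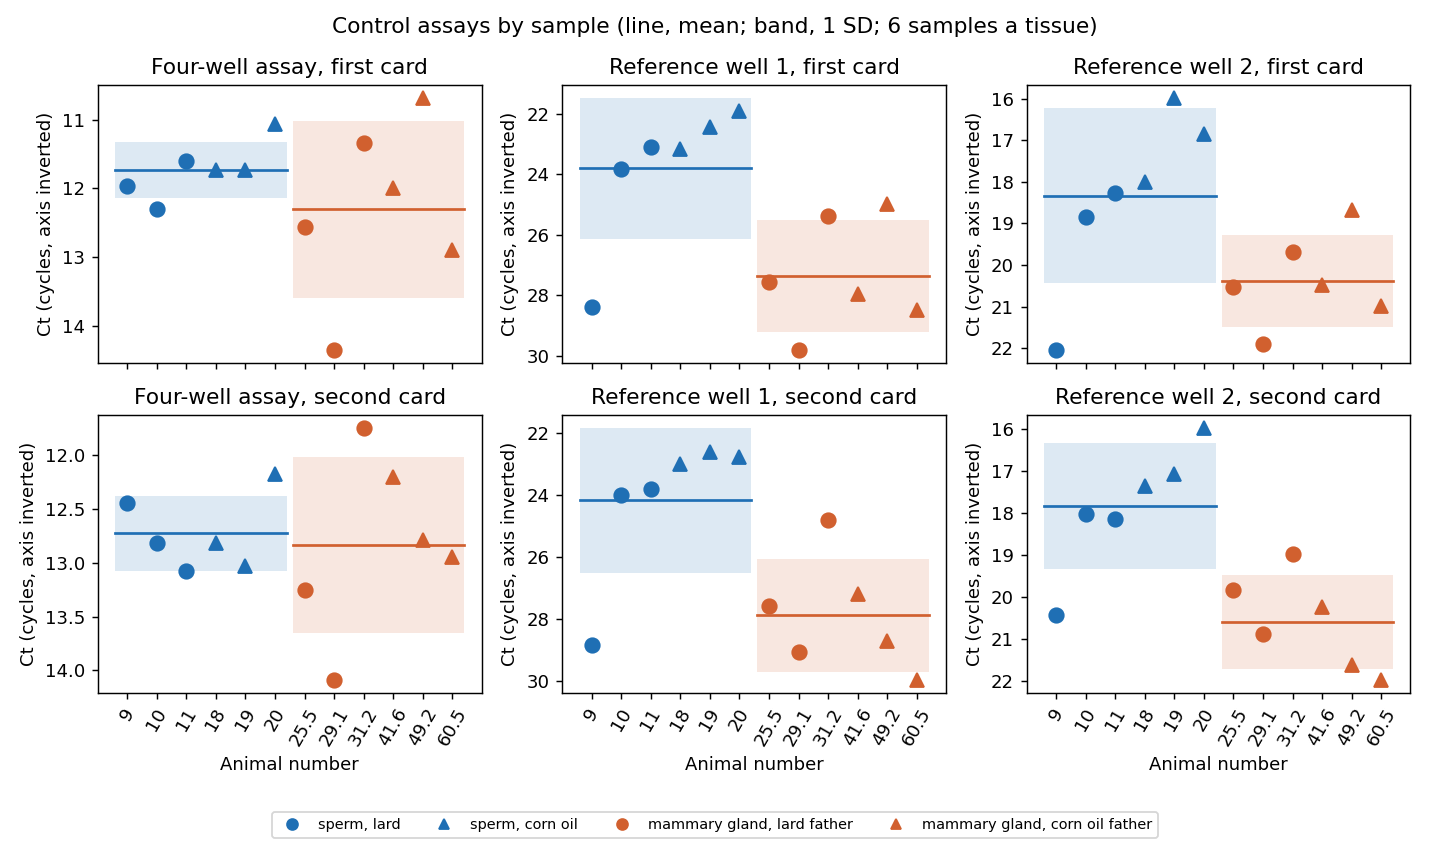
Ct in cycles, on inverted axes, of the 4-well assay and the 2 reference wells in each of the 12 samples on the first (top) and second card (bottom). Lines are means and bands 1 SD over 6 samples. The 4-well assay lies at similar Ct in both tissues, whereas reference well 1 lies on average 3.55 and 3.71 cycles later in the glands with rat 9 included and 4.47 and 4.64 without it.

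With geNorm over all 12 samples, the procedure that the methods name for choosing stable controls, the 2 reference wells were retained on both cards. Log2 relative expression, the mean Ct of these 2 wells minus the Ct of the assay, was compared between tissues with limma. Of the 519 assays, 150 were higher in the mammary gland (28.9%) and 164 were lower (31.6%) at a Benjamini-Hochberg adjusted p under 0.1, the methods' threshold, and 205 were not called. Among the 371 assays detected in both tissues, 123 were higher and 73 lower. The 119 assays of sperm alone held 91 of the lower calls and the 29 of the gland alone held 27 of the higher ones. Every gland lay above every sperm sample for 22 of the 371 shared assays and below for 32. Over all 519 this was so for 34 (6.55%) and 96 (18.5%), of which 12 and 64 were detected in 1 tissue alone, where the detection rule favours that direction. Without daughters 49.2 and 60.5, 128 were higher and 145 lower.

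The 371 shared assays had a median difference, gland minus sperm, of 0.68 (log2), and the quartiles were -1.30 and 2.60. The median standard error of 1 assay's difference was 0.768. Leaving out 1 sample moved the median of 0.68 to between 0.25 without rat 11 and 1.06 without rat 9, and it was 1.26 without daughters 49.2 and 60.5. The medians of the samples did not pass the test with the reference wells (exact permutation test, p = 0.483). On the first card 80 of 235 shared assays were higher and 36 lower, and on the second card 43 and 37 of 136. Differences over 3 on the log2 scale were called for 67 shared assays higher and 52 lower in the gland.

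These splits followed the scaling. Unscaled, as raw Ct, 47 assays were higher and 324 lower in the mammary gland, and the shared assays had a median of -2.15, with sample medians that differed between the tissues (exact permutation test, p = 0.00433). Referred to the 4-well assay alone there were 64 higher and 316 lower, and the median was -1.70 (exact permutation test of the sample medians, p = 0.00433). All 3 controls gave 122 and 218, with a median of -0.09. Relative to the mean Ct of the assays with a Ct in all 12 samples there were 159 higher and 219 lower, and after quantile normalization 195 and 181. Higher calls were 47.8% of all calls with the reference wells and from 12.7% on raw Ct to 51.9% after quantile normalization.

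**Figure D4:**
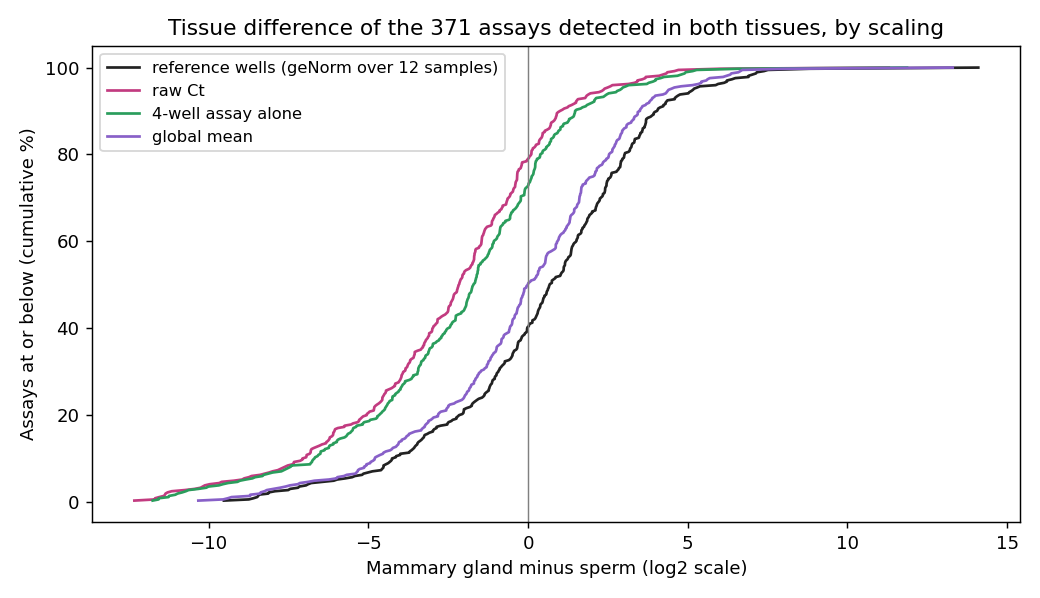
Cumulative share of the 371 assays detected in both tissues (vertical, percent) by their difference, mammary gland minus sperm (horizontal, log2 scale), under 4 scalings. The curves have a similar shape and lie apart, with medians of -2.15 for raw Ct, -1.70 for the 4-well assay, 0.00 with the mean of the assays and 0.68 with the reference wells. The value near 0 follows from the centring, since 291 of the 371 assays enter that mean.

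Calls made under several scalings at once were counted over 7 of them, the 6 above and 1 control mean over both cards. geNorm run within each tissue was left out of the 7, since it refers the tissues to different controls on card 1, and under it wells 228 and 282, described below, lost their call. Of the 371 assays detected in both tissues, 23 of the 123 higher and 63 of the 73 lower calls were made under all 7. The 2 directions cannot be compared by these counts, since raw Ct, the 4-well assay and all 3 controls put the median of the shared assays below the 0.68 of the reference wells. Under each of these scalings fewer shared assays were called higher and more were called lower. The mean of the assays also put that median lower, but there both counts rose, to 132 higher and 122 lower. Over all 519 assays the numbers were 47 of 150 and 150 of 164, but 24 of the 47 and 87 of the 150 were detected in 1 tissue alone. Another 52 shared assays were called higher under one scaling and lower under another, 16 of 235 on the first card and 36 of 136 on the second. By card, 19 of 80 and 4 of 43 higher calls of shared assays were made under all 7. For lower calls it was 35 of 36 and 28 of 37. With a Ct in all 12 samples and no overlap between the tissues under any of the 7, 7 assays were higher in the gland, all on the first card, and 18 lower, 10 on the first and 8 on the second card. The 7 higher assays differed by 5.38 to 8.81 on the log2 scale with the reference wells, with a median Ct of 24.5 in sperm and 21.1 in the gland. The 18 lower assays differed by -2.94 to -9.52, with median Ct of 19.7 and 29.6.

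The largest differences among assays with a Ct in all 12 samples and no overlap were in wells 228 and 282, higher in the mammary gland, and wells 45 and 362, lower, all on the first card. Well 228 had a Ct of 28.04 to 31.52 in sperm (median 31.1) and of 23.4 to 27.0 in the gland (median 24.6). The earliest sperm sample was rat 20, the other 5 lay between 31.0 and 31.5, and the groups did not overlap. Relative to the reference wells its level was -9.64 ± 1.95 in sperm and -0.83 ± 1.65 in the gland (log2, SD, n = 6 each), a difference of 8.81 (standard error 0.950, limma adjusted p = 1.72e-05). This corresponds to 449-fold if each cycle is a doubling. The difference was 8.97 within lard and 8.65 within corn oil, and it was 6.01 on raw Ct, the smallest of the 7 scalings.

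On raw Ct, well 282 was steadier. Its Ct was 24.36 to 24.98 in sperm (median 24.5) and 19.0 to 21.0 in the mammary gland (median 19.8), so that the sperm samples differed among themselves by less than 1 cycle. The difference was 7.51 on the log2 scale (standard error 0.795, limma adjusted p = 1.55e-05), and 4.71 on raw Ct. It was 6.59 within lard and 8.43 within corn oil. Relative to the reference wells the sperm samples had an SD of 2.00, against 0.279 on raw Ct, and rat 9 lay at 0.32 where the other 5 lay at -5.18 to -3.66. On raw Ct, rat 9 at 24.9 lay among the other sperm samples, and its reference wells were the latest of the 6.

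Well 45 had a Ct of 19.4 to 22.2 in sperm (median 19.8) and of 31.5 to 36.0 in the mammary gland (median 31.96). Daughter 41.6 was the latest, and the groups lay over 9 cycles apart. The difference was -9.52 on the log2 scale (standard error 0.898, limma adjusted p = 6.91e-06), and -12.32 on raw Ct, the largest of the 7 scalings. It was -9.94 within lard and -9.10 within corn oil. Well 362 had a Ct of 20.7 to 22.7 in sperm (median 21.4) and of 31.3 to 36.0 in the gland (median 32.3), with daughter 60.5 the latest. Its difference was -8.60 (standard error 0.910, limma adjusted p = 1.55e-05), and -11.4 on raw Ct. It was -9.97 within lard and -7.22 within corn oil. With each sample left out in turn the differences of wells 228, 282, 45 and 362 ranged from 8.35 to 9.44, 7.18 to 8.17, -10.1 to -8.96 and -9.08 to -7.96. Without daughters 49.2 and 60.5 they were 9.73, 7.88, -10.6 and -7.83.

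Because these wells lie on 1 card, a ratio of 2 of them needs no control. The log2 ratio of well 228 to well 45, as the difference of their Ct, was -11.9 to -8.05 in sperm (median -10.7) and 5.02 to 11.8 in the mammary gland (median 7.98). The ranges of the tissues did not overlap. Since the wells were chosen for opposite differences, the change in the ratio follows from the choice, and no test is given. Which of the 2 assays had the earlier Ct says nothing of their relative levels, as they may differ in efficiency.

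**Figure D5:**
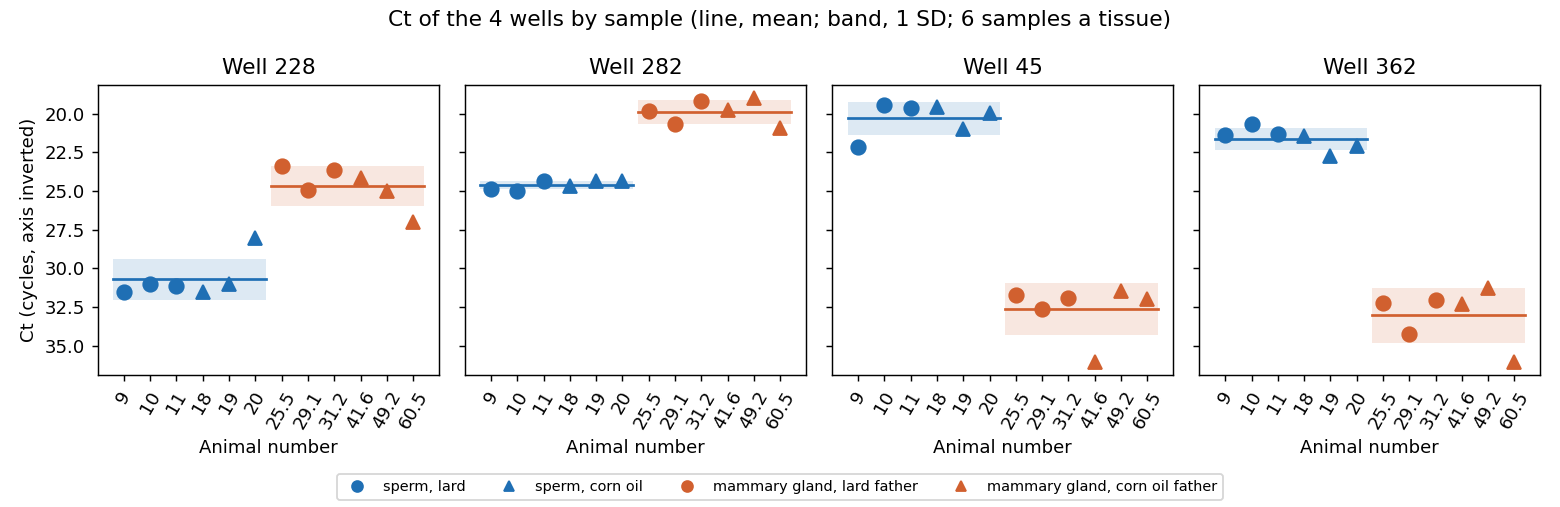
Ct in cycles, on an inverted axis, of wells 228, 282, 45 and 362 in each of the 12 samples. Lines are means and bands 1 SD over 6 samples, and circles are lard and triangles corn oil. Sperm and glands do not overlap in any of the 4 wells.

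The strongest assays were partly shared. Of the 25 assays with the earliest median Ct on a card, both tissues had 14 (56%) in common for card 1 and 15 (60%) for card 2. On the first card 1 of the 25 strongest in sperm had a Ct under 35 in fewer than 3 glands, and 1 of the 25 strongest in the gland had one in fewer than 3 sperm samples. On the second card the numbers were 2 and 0. Levels of different assays were compared here by Ct, which also reflects how well each assay and its preamplification work.

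A few assays made up most of the signal of a card, taken as the sum of 2 to the power of minus Ct. The 10 strongest held 99.5% ± 0.214 in sperm and 97.6% ± 5.23 in the mammary gland on the first card (SD, n = 6 each), a difference of -1.91 percentage points that did not pass the test (exact permutation test, p = 0.952). The first-card value rested on well 316, singled out after its values were seen, whose Ct was 5.54 to 7.01 in 11 samples, while daughter 60.5 had no crossing. The difference was 0.23 percentage points without daughter 60.5 and 0.31 without daughters 49.2 and 60.5 (p = 0.0996 and 0.0286, exact permutation tests). Without this assay the 10 strongest held 95.8% ± 1.65 in sperm and 89.8% ± 2.00 in the gland, and every sperm sample lay above every gland (exact permutation test, p = 0.002165, adjusted 0.00953). On the second card the shares were 96.7% ± 1.66 and 95.8% ± 1.55 (exact permutation test, p = 0.362).

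Samples resembled their own tissue more than the other in the order of their assays. Over the 293 assays with a Ct in all 12 samples, Spearman's rho across assays was 0.892 to 0.980 between sperm samples, 0.848 to 0.968 between glands and 0.649 to 0.744 between the tissues. The lowest value within a tissue lay above the highest between them. The spread of single assays differed with the scaling. With the reference wells the median SD was 1.76 in sperm and 0.883 in the gland, on raw Ct it was 0.895 and 1.34, and relative to the mean of the assays 0.625 and 0.670 (n = 6 each).

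Diet was balanced between the tissues and could be set beside the tissue difference. With the reference wells, tissue took a median of 34.8% of an assay's sum of squares, diet 18.1% and the residual 36.4% over these 293 assays. Relative to the mean of the assays, tissue took 64.0% and diet 2.14%. Tissue took over 50% for 99 assays under the first scaling and for 189 under the second.

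The tissue difference was then fitted in the lard and the corn oil animals apart, which share no sample. Of the 3 glands of corn oil, 2 are those of daughters 49.2 and 60.5, and the sperm of lard include rat 9, without which the tissue contrast over both diets had 185 higher calls in place of 150. With lard, 61 assays were higher in the mammary gland (11.8%) and 151 lower (29.1%), and with corn oil 143 were higher (27.6%) and 129 lower (24.9%). Among the 371 shared assays, 38 were higher and 59 lower with lard and 122 and 45 with corn oil. Of these, 29 were called higher and 38 lower with both diets, and 0 were called in opposite directions. Assays detected in 1 tissue alone are left out of this count, since the detection rule favours one direction for them. The median over the shared assays was 0.19 with lard and 1.14 with corn oil. Across the 371 shared assays the 2 sets of differences had a Pearson's r of 0.708, and 294 (79.2%) had the same sign. Assays of 1 fit share their reference wells, so they are not independent of each other.

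For single assays the 2 diets were not shown to differ in the tissue difference. For the interaction of tissue and diet, 0 of 519 assays (0%) had an adjusted p under 0.1 in limma, with a smallest value of 0.573, and 42 had an unadjusted p under 0.05. With limma's trend and robust options the number was also 0. It was 9 with undetermined wells missing, 6 with only assays under 35 in all samples of both tissues, and 4 without daughters 49.2 and 60.5.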

How the data were processed

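The authors deposited the Ct of each well in cycles, without normalization, with 40 for wells without a crossing. For the baseline and threshold the setting is not given in the sources used here. Per the labels, total RNA was reverse transcribed and preamplified with primer pools, which can favour some assays over others. The labels name Trizol and the methods a column kit. The authors also deposited fold changes of corn oil over lard, which were not used.

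The 4-well assay and 2 reference wells of each card were taken as controls and the remaining 756 wells as assays. The control positions held similar values on both cards: the median absolute difference between the cards was 0.607, 0.654 and 0.842 cycles for the 4-well assay and the 2 reference wells, against 3.75 over the 65 positions with a Ct in all samples on both cards. The 4 wells hold identical values. geNorm over 12 samples removed the 4-well assay (stability value 1.86 for card 1 and 2.27 for card 2). Log2 relative expression (average of the 2 retained controls' Ct minus the assay's Ct) was fitted with limma 3.58.1 in R 4.3.3 on the 4 groups of tissue and diet, and the tissue contrast averaged the diets. Calls had a Benjamini-Hochberg adjusted p under 0.1. Single values per sample were compared by two-sided exact permutation tests of 6 against 6. The fit was also run on simulated data in which the controls were constant, so error shared through the reference wells was not tested.

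The members, the limits and the tests were chosen with earlier results of these data known. Named wells were the 2 with the largest difference in each direction among called assays that crossed in all 12 samples and did not overlap between tissues. Alternatives covered the scaling, undetermined wells, the detection filter, the model and leaving out each sample.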

Additional observations from a re-analysis of the deposited data

Results flagged for a closer look

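In 52 groups of 6 samples, each 1 measure in 1 tissue, 9 had a lowest or highest sample far from the others by Dixon's criterion, which chance does in about 1 group of 20. The measures are related to each other, and 7 of the 9 belong to rat 9. The sperm of rat 9 gave a Ct for 475 assays, where the other 5 sperm samples gave 488 to 494, and a Ct under 35 for 464, where the others had 478 to 485. Its Ct of reference well 1 was 28.4 on the first card (others 21.9 to 23.8) and 28.8 on the second (others 22.61 to 23.99). The mean of both reference wells was 25.2 on the first card (others 19.2 to 21.3) and 24.6 on the second (others 19.4 to 21.0). The log2 relative expression of well 282 in rat 9 was 0.319, against -5.18 to -3.66. In the gland of daughter 60.5 the 10 strongest assays held 86.9% of the signal of the first card (others 99.4% to 99.9%), and the strongest assay 49.2% (others 95.5% to 99.1%), in the sample without a crossing in well 316.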

How the results depend on the processing

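No paired analysis was possible because the tissues share no animal numbers. The alternatives without daughters 49.2 and 60.5, with undetermined wells of strong assays missing, without the earliest assay, and all those of the numbers of detected assays were chosen after seeing the data. For a change given below without a reason, the cause was not tested.

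Higher calls, 150, were 47 for raw Ct, 64 for the 4-well assay, 64 with geNorm within each tissue, 348 without a detection filter, where assays without a Ct in either tissue take the difference of the reference wells, and 61 in the lard animals only. Lower calls, 164, were 324, 316 and 354 under the first 3, 99 when undetermined wells were missing, and 43 and 74 when only assays under 35 in all 6, or in 3, samples of both tissues were tested, which are fewer assays. geNorm within each tissue refers the tissues to different controls on the first card, which by construction leaves no common scale. The count with single samples left out was 135 to 185 higher and 158 to 181 lower.

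With the global mean, a median of the shared assays near 0 follows from the centring on assays that are mostly shared. The median over the shared assays, 0.68, was -2.15 for raw Ct, -0.089 with all 3 controls, -1.70 for the 4-well assay, -3.4e-05 with the global mean, -5.06 with geNorm within each tissue and 0.96 after quantile normalization (exact permutation test, p = 0.00216), and 0.25 to 1.06 with single samples left out. Over all 519 assays it was -0.04, and -3.02, -0.94, -2.60, -0.60, -5.28 and 0.27 under the same 6, 0.44 after a cap at a Ct of 35, 0.44 when undetermined wells were missing, 1.04 and 0.68 when assays had to be under 35 in all and in 3 samples of both tissues, 1.79 without a filter, 0.18 without daughters 49.2 and 60.5, and -0.42 to 0.31 with single samples left out, above 0 without rat 9 (0.31), daughter 49.2 (0.044) or rat 18 (0.075).

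The interaction, 0 assays, was 1 for raw Ct, 2 for the 4-well assay, 2 after quantile normalization, 9 when undetermined wells were missing, 6 for assays under 35 in all samples of both tissues, 4 without daughters 49.2 and 60.5, and 0 to 2 with single samples left out, with 1 without rat 18, 2 without rat 20 and 2 without daughter 41.6. With geNorm within each tissue both wells named as higher lost their call, well 228 at 1.28 (limma adjusted p = 0.204) and well 282 at -0.0188 (limma adjusted p = 0.98).

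Relative to the median of the assays, the 4-well assay differed by -1.61 and -2.79 cycles on the 2 cards, reference well 1 by 1.38 and 0.80, and reference well 2 by -0.13 and -0.15. Without daughters 49.2 and 60.5 reference well 1 on the second card was 2.98. With single samples left out the 4-well assay ranged from 0.16 to 0.90 on the first card and from -0.14 without daughter 29.1 to 0.33 on the second, reference well 1 from 3.07 to 4.47 and 3.29 to 4.64, and reference well 2 from 1.58 to 2.79 and 2.39 to 3.28, past the threshold on the first card without rat 9 or, at 2.39, without daughter 49.2.

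The difference in assays with a Ct was -76.0 to -61.6 with single samples left out. The share of the 10 strongest on the first card, -1.91 percentage points, was 0.31 without daughters 49.2 and 60.5, -5.94 without the earliest assay, and -2.37 to 0.23 with single samples left out, above 0 without daughter 60.5. On the second card it was -1.40 to -0.56. Assays detected in both tissues numbered 348 to 368, in sperm alone 114 to 142 and in the gland alone 21 to 35 with single samples left out, and the last was 15 at a Ct under 32. With a sample left out the limit stayed at 3 samples, which is stricter for the tissue that lost it.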

Other observations

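Daughters 49.2 and 60.5, both fathered by corn oil-fed male rats, differed from the 4 other daughters, 41.6 of the same diet among them, at many assays. Relative to the mean Ct of the assays with a Ct in all 12 samples of the same card, both lay below all 4 others for 49 of 293 assays (16.7%) and above all 4 for 59 (20.1%). The difference of the means was over 3 on the log2 scale for 9 of the lower and 2 of the higher assays. These 2 glands were set apart after their values were seen, and no test is given.

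Missing crossings in strong assays were counted by position. With wells numbered along rows of 24, the last 2 rows of the first card held 24 of the 322 assays of sperm with a median Ct under 28, and 13 of these 24 had no crossing in 1 or more samples, against 23 of the 298 at all other positions of both cards, the last rows of the second card included. In the mammary gland it was 8 of 17 against 11 of 180. Well 362 lies in these rows and had a Ct in all 12 samples. Well 364, the earliest assay in sperm with no Ct in any gland (19.7), lies there too. So does well 360, the earliest assay of the gland alone (17.4). Per sample, missing crossings in strong assays numbered 6 to 16 in sperm, with rat 11 the highest, and 2 to 10 in the gland, with daughter 41.6 the highest. In 3 assays of sperm and 2 of the gland, 1 sample alone gave a Ct under 25, the earliest at 15.2 and 14.3, while the other 5 had no crossing.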
